A study of Homo sapiens with 6 samples.

Results

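The collagen chain genes of 2 gastric cancer cell lines are described here. With earlier results of these data known, they were chosen by name. The rule took every gene whose symbol is COL, a number, the letter A and a second number with no suffix. This rule found 44 of the 51103 genes in each table, all of them annotated as protein-coding, and left out 9 names with a suffix. By the structure their protein is known to form, the 44 were sorted into 11 fibrillar chains, 6 basement membrane chains, 10 FACIT chains (fibril-associated collagens with interrupted triple helices), 2 multiplexins, 5 beaded filament chains, 1 anchoring fibril chain, 3 short-chain network chains, 4 transmembrane chains and 2 others.

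Polyadenylated RNA was sequenced from HGC-27 and AGS, lines grown from an undifferentiated carcinoma and an adenocarcinoma of the stomach. Cells had received a lentivirus, either a negative control or one made to overexpress NINJ1, a membrane protein known for cell adhesion and for rupture of the plasma membrane in lytic cell death. They were lysed 48 hours later by the labels' protocol. Each line had 1 control library and 2 libraries labelled NINJ1. The labels used here name neither the promoter of the vector nor the multiplicity of infection, do not say whether the cells were a pool or 1 clone, and do not say whether replicates were separate cultures. The p-values therefore measure only the spread between these libraries, which may be technical, and each control library is assumed to vary like the NINJ1-labelled pairs. For both NINJ1 replicate 2 libraries the line in the title is the reverse of that in the file name, and the file name was followed.

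Collagens are secreted proteins of the extracellular matrix in which 3 chains wind into a triple helix. Fibrillar chains build the fibres of connective tissue, and FACIT chains decorate the surface of those fibres. Type IV chains form the network of basement membranes, to which multiplexins are attached, and type VII collagen ties the basement membrane to the tissue below. In carcinomas most fibrillar collagen is known to come from fibroblasts of the stroma, which a cultured line lacks.

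The triple helix needs 1 glycine in each group of 3 residues, so the helical part of a coding sequence carries the glycine codon GGN once in every 3 codons. Runs of such triplets covered a median of 61.4% of the codons in fibrillar chains, 76.8% in basement membrane chains, 60.8% in FACIT chains and 29.1% in multiplexins, with 8.2% in COL12A1. The longest unbroken run of such triplets had a median of 338 triplets in the 11 fibrillar chains (216 to 343), 85 in the FACIT chains (32 to 113), 41 in the basement membrane chains (38 to 66) and 30 in both multiplexins. The first 54 bases of the longest run are shown for 5 chains that lead the results below, with the glycine codons in capitals (GENCODE 29 transcripts, GRCh38, coding strand).
COL5A1: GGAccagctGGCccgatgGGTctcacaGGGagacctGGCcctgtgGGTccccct
COL7A1: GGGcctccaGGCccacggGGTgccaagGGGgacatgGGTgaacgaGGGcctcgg
COL12A1: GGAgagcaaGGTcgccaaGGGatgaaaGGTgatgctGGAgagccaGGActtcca
COL15A1: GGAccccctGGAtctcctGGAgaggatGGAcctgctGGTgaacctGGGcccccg
COL25A1: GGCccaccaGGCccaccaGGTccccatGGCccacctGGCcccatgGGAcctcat
The triplet runs were richer in G and C than the other codons of the same chain in 43 of 44 chains, with medians of 63.4% against 55.5% GC. GC content matters for these libraries because they differ in it. In the HGC-27 control 2.31% of counts fell on genes with over 60% GC, while the other 5 libraries ranged from 9.25% to 11.3%. For that reason the counts of chains called are given without and with a correction for GC content. In it each library's trend of log2 level against gene GC content was removed. Changes of single genes are without it unless stated.

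Total counts ran from 12619684 to 18175697 per library. CPM here means counts scaled to the same library total, after that total was adjusted by edgeR's TMM factor. NINJ1 itself stood at 4.89 CPM in the HGC-27 control and at 17.3 and 19.1 in the HGC-27 libraries labelled NINJ1. In AGS it stood at 28.4 in the control and at 19.5 and 15.9 in the libraries labelled NINJ1, so the level goes against the label there (log2 change -0.68, edgeR adjusted p = 0.0148) and the libraries are called NINJ1-labelled throughout. In HGC-27 the log2 change of NINJ1 was 1.89 (edgeR adjusted p = 3.22e-08). With the GC correction it was 0.51 in HGC-27 (edgeR adjusted p = 0.0608) and -0.57 in AGS (edgeR adjusted p = 0.0209). Among epithelial markers KRT8 and KRT18 lay between 48.6 and 111 FPKM (counts scaled by gene length and library total), while CDH1 was at most 0.454 and KRT19 at most 0.0339. EPCAM, also epithelial, lay between 2.57 and 7.93. Among mesenchymal markers VIM lay between 45.4 and 94.3, CDH2 between 5.63 and 7.11 and ZEB1 between 7.45 and 14.8. FN1 had 9.13, 5.29 and 5.50 FPKM in HGC-27 and 0.770, 0.265 and 0.257 in AGS. Endothelial and leukocyte markers summed to at most 0.506 and 0.154 FPKM.

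Of the 44 chains, 19 reached an FPKM of 1 in at least 1 library and 8 did so in all 6. The other 25 stayed below 1 everywhere, COL11A2 being the closest at 0.937, and COL9A1, COL19A1, COL22A1 and COL23A1 had no count in any library. A count of 0 allows up to 3 counts, for counting error only. Collagen chains took between 0.0928% and 0.400% of all counts, lowest in the HGC-27 control and highest in the AGS control. Summed over the chains, FPKM was 81.1 in the HGC-27 control against 142 and 151 in the NINJ1-labelled HGC-27 libraries. It was 383 in the AGS control against 167 and 158 in the NINJ1-labelled AGS libraries, so all 4 NINJ1-labelled libraries lay between the 2 controls.

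**Figure D1:**
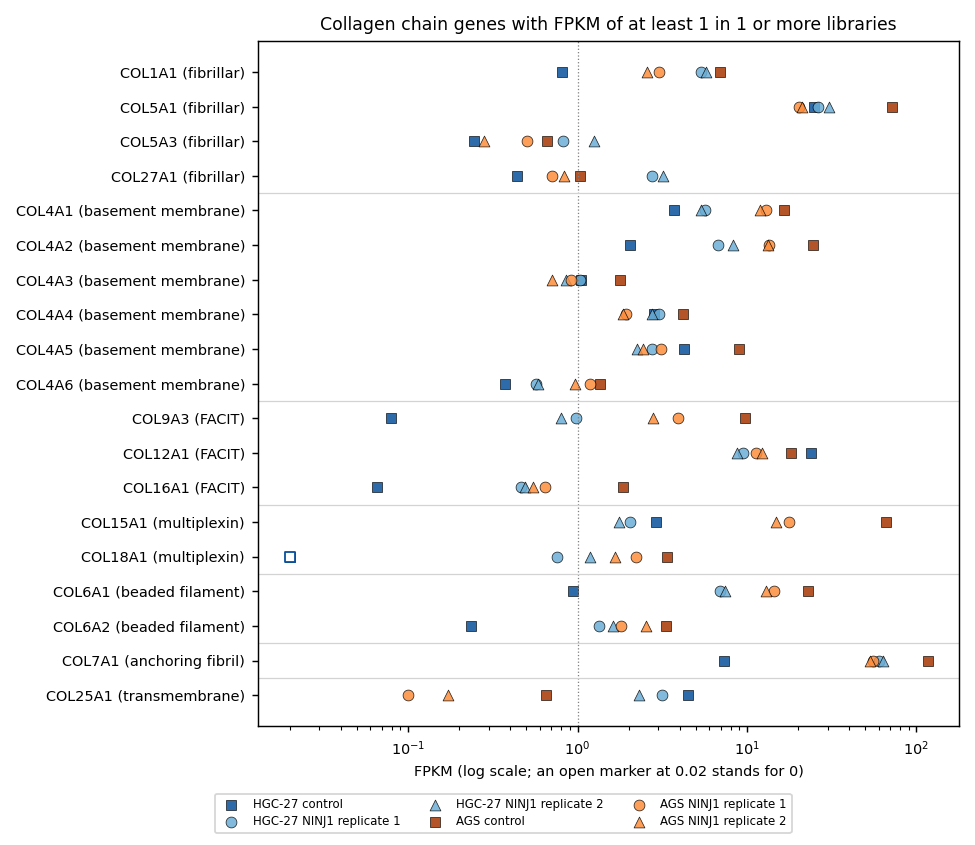
FPKM (log scale) of the 19 collagen chains that reached 1 in at least 1 library, with 1 marker per library and chains grouped by class. The AGS control is the highest library for most chains, and COL18A1 has no count in the HGC-27 control.

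COL7A1, the chain of the anchoring fibril (chromosome 3, 48564073 to 48595267, minus strand), was the most abundant chain per length in 5 of 6 libraries. It made up 30.4%, 33.2% and 33.9% of collagen FPKM in the AGS libraries and 42.4% and 42.2% in the NINJ1-labelled HGC-27 libraries, but 9.04% in the HGC-27 control. There COL5A1, a regulator of fibril diameter, led with 30.8%, followed by the FACIT chain COL12A1 with 29.3%. COL15A1, a multiplexin, held 17.4%, 10.6% and 9.38% in AGS and between 1.16% and 3.57% in HGC-27. COL25A1 was the only transmembrane chain to pass FPKM 1, with 4.47, 3.13 and 2.30 in HGC-27 and 0.656 and less in AGS.

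**Figure D2:**
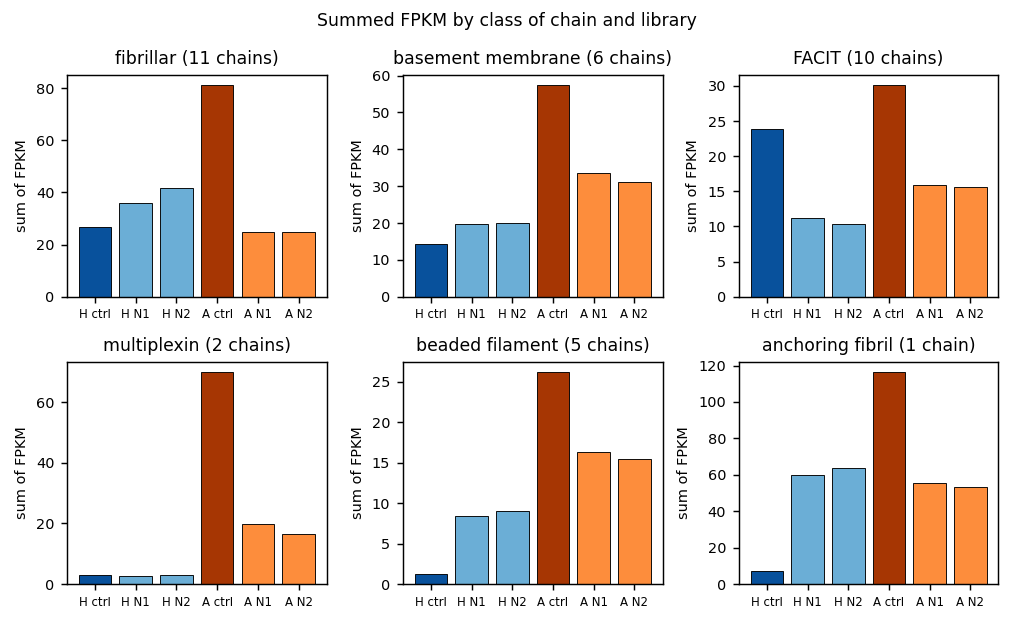
Sum of FPKM over the chains of 6 classes in each library (H, HGC-27; A, AGS; ctrl, control; N1 and N2, NINJ1-labelled replicates), 1 bar per library. The multiplexin sum is 69.9 in the AGS control, between 16.5 and 19.9 in the other AGS libraries and at most 2.94 in HGC-27.

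By class, fibrillar FPKM summed to 26.8 in the HGC-27 control, 35.9 and 41.8 in its NINJ1-labelled libraries, 81.1 in the AGS control and 25.0 in each NINJ1-labelled AGS library. Basement membrane chains summed to 14.2, 19.8 and 20.1 in HGC-27 and to 57.4, 33.6 and 31.0 in AGS. FACIT chains summed to 23.9, 11.2 and 10.4 in HGC-27, where the control was the highest library, and to 30.1, 15.9 and 15.6 in AGS. The classes thus shared a high AGS control, and they differed in where the HGC-27 control stood.

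For the tests, 28 chains passed the filter on low counts and 16 did not. The highest count of an untested chain in any library was 9. Of the 28, 16 lay at or above the filter level of 0.703 CPM, by library totals without the TMM factor, in all 6 libraries. The other 12 passed through some libraries only. Calls are edgeR quasi-likelihood tests with Benjamini-Hochberg adjusted p under 0.05 over all 17617 genes tested.

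In AGS, collagen chains were lower in the NINJ1-labelled libraries than in the control. Of 28 tested chains 16 fell and 0 rose (0 also at an unadjusted p under 0.05 by edgeR and 0 by DESeq2), while 9.30% of all genes tested fell and 5.73% rose. The median log2 change was -1.15 over the 28 chains, -1.04 over the 16 at the filter level in all 6 libraries and 0.00357 over all genes. With the GC correction 15 fell and 0 rose, where 10.1% of all genes fell and 8.51% rose. Of the 16 chains at the filter level in all 6 libraries, 12 fell with and without it. COL8A1, 1 of the 16 that fell, passed the filter through the AGS control alone, so its fall was bound up with the filter. In bulk RNA, fewer cells that make a chain and less RNA per cell cannot be told apart.

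COL15A1, whose C-terminal fragment is known as restin (chromosome 9, 98943179 to 99070792, plus strand), had 66.5 FPKM in the AGS control against 17.7 and 14.8 in the NINJ1-labelled libraries. It fell by 2.09 on the log2 scale (SE 0.13, edgeR adjusted p = 1.90e-13). COL18A1, the second multiplexin and the source of endostatin, had 3.36, 2.21 and 1.67 FPKM. It fell by 0.85 (SE 0.22, edgeR adjusted p = 0.00815), a call lost with the GC correction (adjusted p = 0.132), with DESeq2 (adjusted p = 0.145) and without NINJ1-labelled AGS replicate 2 (adjusted p = 0.155). COL18A1 shares 16.4% of its exonic bases with SLC19A1 on the other strand, and whether the authors counted by strand is not given in the sources used here, so its level is uncertain.

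Among fibrillar chains 2 of 6 tested fell. COL5A1 (chromosome 9, 134641774 to 134844843, plus strand) had 72.0 FPKM in the AGS control against 20.3 and 21.0 in the NINJ1-labelled libraries, a fall by 1.86 (SE 0.12, edgeR adjusted p = 1.03e-12). COL1A1, the main chain of type I collagen, had 6.91, 3.02 and 2.56 FPKM and fell by 1.36 (SE 0.16, edgeR adjusted p = 8.65e-08). The AGS control lay above both NINJ1-labelled libraries for each of them. COL27A1, a chain of cartilage fibrils, had 1.04, 0.702 and 0.835 FPKM and COL5A3, a minor type V chain, 0.659, 0.505 and 0.279, and neither passed the test.

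Of the basement membrane chains 5 of 6 fell, the exception being COL4A6 with 1.36, 1.19 and 0.966 FPKM. COL4A5 went from 8.97 to 3.13 and 2.42 FPKM and fell by 1.75 (SE 0.16, edgeR adjusted p = 6.25e-10). COL4A2 went from 24.6 to 13.6 and 13.2 FPKM and fell by 0.93 (SE 0.13, edgeR adjusted p = 2.54e-06). COL4A1 and COL4A2 form the network found in nearly all basement membranes, and COL4A3, COL4A4 and COL4A5 that of the kidney filter and a few other sites. COL4A4 fell by 1.19 (SE 0.17, edgeR adjusted p = 4.19e-06), from 4.17 to 1.94 and 1.85 FPKM. COL4A3 went from 1.78 to 0.912 and 0.710 FPKM and changed by the same log2 value of -1.19 (SE 0.24). Its call was lost with limma on log2(FPKM + 1) and log2(FPKM + 0.1) (adjusted p = 0.101 and 0.106). COL4A1 had 16.5, 12.9 and 11.9 FPKM and fell by 0.47 (SE 0.13, edgeR adjusted p = 0.00976), a call lost without NINJ1-labelled AGS replicate 1 (adjusted p = 0.0904) or replicate 2 (adjusted p = 0.246).

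Of the FACIT chains 3 of 4 tested fell. COL9A3, a cartilage chain, had 9.70 FPKM in the AGS control against 3.90 and 2.79 in the NINJ1-labelled libraries and fell by 1.59 (SE 0.20, edgeR adjusted p = 5.32e-07). COL16A1, a chain of small fibrils in skin and cartilage, had 1.86, 0.641 and 0.545 FPKM and fell by 1.70 (SE 0.26, edgeR adjusted p = 1.21e-05). COL12A1, which binds type I fibrils in tendon and stroma, had 18.3, 11.4 and 12.2 FPKM and a smaller fall, by 0.69 (SE 0.13, edgeR adjusted p = 0.00019).

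COL7A1 had 116 FPKM in the AGS control against 55.3 and 53.4 in the NINJ1-labelled libraries, and fell by 1.15 (SE 0.12, edgeR adjusted p = 1.28e-08). COL6A1, a chain of the beaded filaments around cells, had 22.8, 14.4 and 12.9 FPKM and fell by 0.79 (SE 0.14, edgeR adjusted p = 0.000136). Its partner COL6A2 had 3.31, 1.81 and 2.55 FPKM and did not pass. COL25A1, whose shed part is known from amyloid plaques, had 80 counts in the AGS control against 11 and 20 in the NINJ1-labelled libraries. It fell by 2.31 (SE 0.34, edgeR adjusted p = 7.04e-06). Its call was lost with limma on log2(FPKM + 1) and log2(FPKM + 0.1) (adjusted p = 0.144 and 0.0573). COL8A1, a short chain of the vessel wall and cornea, had 27, 3 and 3 counts, and its call (adjusted p = 0.0271 by edgeR) was lost without either NINJ1-labelled AGS library (adjusted p = 0.109 and 0.150).

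Summed levels of fibroblast and endothelial markers were lower in the same libraries. Of 6 fibroblast markers 2 were at a count of 0 in the AGS control against 4 and 3 in the NINJ1-labelled libraries, and their FPKM summed to 4.08 against 0.789 and 0.845. PDGFRB made up nearly all of it with 3.90, 0.777 and 0.707 FPKM, while PDGFRA had no count in any library, LUM had none in AGS, DCN was at most 0.0391 in AGS and THY1 had 7, 0 and 10 counts. The 3 endothelial markers summed to 0.506 FPKM in the AGS control, 0.164 in NINJ1-labelled replicate 1 and 0.0825 in replicate 2, with PECAM1 at 49, 7 and 7 counts and VWF at 6, 7 and 2. In HGC-27 the 6 fibroblast markers summed to 0.388 in the control and to 0.10 and 0.148. The part of these markers in the collagen result was not tested.

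In HGC-27 the result for most chains depended on the GC correction. Without it 13 of 28 chains rose and 5 fell, where 34.0% of all genes rose and 29.1% fell (63.0% in all). With it 1 rose and 11 fell, where 22.1% and 27% of all genes did (49.1% in all). Of the 16 chains at the filter level in all 6 libraries 7 rose and 5 fell without it, and 0 rose and 11 fell with it. Their median log2 change was 0.201 without the correction and -0.736 with it, and that of all genes 0.124 and -0.00896. Over all 28 the median of fitted changes was 1.96 without it, but 5 of these chains had no count in the HGC-27 control. With those 5 at the bound that 3 control counts allow, or at 0 where no fold can be given, it was 0.537. With the correction it was -0.231 either way. Of the 15 tested chains with over 60% GC, 12 rose and 0 fell without the correction, and 1 rose and 3 fell with it. Of the 13 with less GC, 1 rose and 5 fell without it, and 0 rose and 8 fell with it. Pearson's r between GC content and log2 change was 0.872 over the 16 chains at the filter level in all libraries, all measured against the same control library, and 0.262 with the correction. In AGS it was 0.397 and 0.575.

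**Figure D3:**
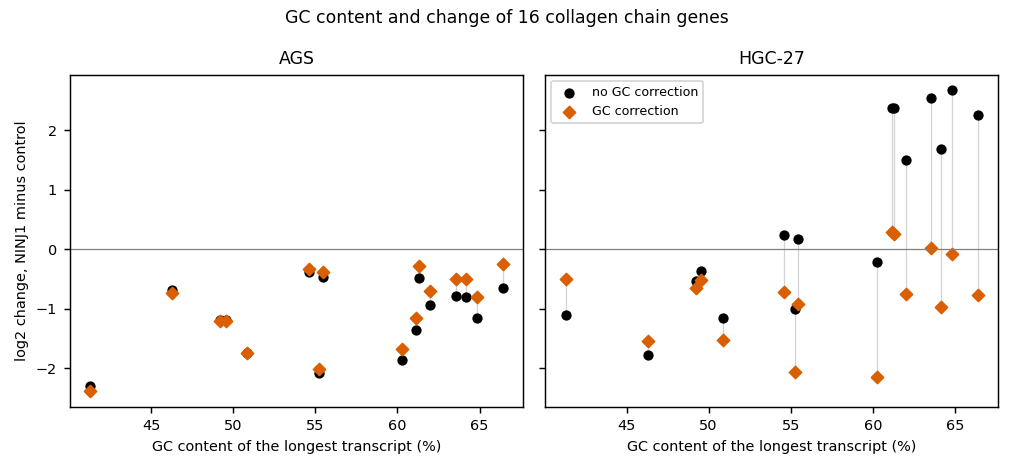
Log2 change, NINJ1-labelled minus control, against GC content (%) of the longest transcript for the 16 chains at the filter level in all 6 libraries, without (black circles) and with (orange diamonds) the GC correction, AGS left and HGC-27 right. In HGC-27 the black points rise with GC content (r = 0.872) and the orange points do so less (r = 0.262). In AGS all points lie below 0.

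COL12A1 (chromosome 6, 75084326 to 75206051, minus strand) fell in HGC-27 under both treatments of the counts. It had 23.7 FPKM in the control against 9.44 and 8.79 in the NINJ1-labelled libraries, a fall by 1.78 (SE 0.12, edgeR adjusted p = 3.73e-14), or by 1.54 with the GC correction (adjusted p = 4.40e-12). COL4A5 had 4.25, 2.74 and 2.25 FPKM and fell by 1.17 (SE 0.16, edgeR adjusted p = 1.21e-07), or by 1.52 with it. COL15A1 had 2.89, 2.03 and 1.75 FPKM and fell by 1.01 (SE 0.17, edgeR adjusted p = 2.52e-06), or by 2.07 with it.

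COL25A1 (chromosome 4, 108808725 to 109302752, minus strand) had 4.47, 3.13 and 2.30 FPKM. It fell by 1.11 (SE 0.20, edgeR adjusted p = 7.93e-06), or by 0.51 with the correction. Its uncorrected call was lost with limma on log2(FPKM + 1) and log2(FPKM + 0.1) (adjusted p = 0.0506 and 0.147). COL12A1, COL4A5, COL15A1 and COL25A1 have between 41.3% and 55.2% GC, and the control was their highest HGC-27 library. COL4A3 was the last of the 5 that fell, with 1.05, 1.04 and 0.860 FPKM (edgeR adjusted p = 0.0469). Its uncorrected call was lost without NINJ1-labelled HGC-27 replicate 2 (adjusted p = 0.13), without the AGS control (adjusted p = 0.0754), without either NINJ1-labelled AGS library (adjusted p = 0.0595 and 0.0600) and with DESeq2 (adjusted p = 0.202).

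The GC-rich chains gave the rises. COL7A1 had 7.34 FPKM in the HGC-27 control against 60.1 and 63.7 in the NINJ1-labelled libraries, a rise by 2.68 (SE 0.14, edgeR adjusted p = 1.15e-16), and the corrected change was -0.0768 (adjusted p = 0.552). COL6A1 had 0.937, 6.95 and 7.43 FPKM, with changes of 2.54 and 0.016. COL1A1 had 0.812, 5.36 and 5.71 FPKM, with changes of 2.37 and 0.29. In all 3 the control lay far below both other libraries, and with the correction none of them passed the test.

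For COL4A2 the direction of the call turned. It had 2.04, 6.78 and 8.27 FPKM and rose by 1.49 (SE 0.15, edgeR adjusted p = 1.61e-10) without the correction, and fell by 0.76 (SE 0.10, adjusted p = 1.97e-06) with it. COL5A3, with 0.245, 0.818 and 1.25 FPKM, turned in the same way, from 1.68 to -0.97 (adjusted p = 0.00044 and 0.0451). COL5A1 had 25.0, 26.1 and 30.5 FPKM. Its tested log2 change was -0.22 without the correction (edgeR adjusted p = 0.143) and -2.14 with it (edgeR adjusted p = 1.32e-14). FPKM uses library totals without the TMM factor, so ratios of FPKM can differ from the tested changes.

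COL27A1 had 0.437, 2.74 and 3.18 FPKM, COL9A3 0.0796, 0.984 and 0.796, COL16A1 0.0653, 0.462 and 0.488, COL6A2 0.235, 1.35 and 1.63 and COL11A2 0.0653, 0.584 and 0.937. All 5 rose without the correction and none was called with it. COL4A1 with 3.73, 5.65 and 5.33 FPKM, COL4A4 with 2.81, 3.01 and 2.75 and COL4A6 with 0.373, 0.573 and 0.587 were called, as lower, in the corrected comparison alone. The 6 basement membrane chains were thus all called lower with the correction, against 1 higher and 2 lower without it.

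COL18A1 was the chain that rose either way. It had no count in the HGC-27 control and 94 and 153 counts in the NINJ1-labelled libraries, at least 38.4-fold higher with 3 counts taken for the control (edgeR adjusted p = 2.70e-11). After the GC correction it was at least 4.18-fold higher (edgeR adjusted p = 0.000249). COL18A1 has 67.2% GC, near the highest of the tested chains (67.4%). It shares 16.4% of its exonic bases with SLC19A1, so its level is uncertain here too. COL9A2, a further cartilage chain, had 0, 21 and 15 counts, at least 5.63-fold higher without the correction, and lost its call with the correction (adjusted p = 0.00183 and 0.136). COL13A1 had 0, 2 and 9 counts and passed at an adjusted p of 0.0498 by edgeR without the correction and not with it (adjusted p = 0.256). Its call was also lost without NINJ1-labelled HGC-27 replicate 2 (adjusted p = 0.251) or the AGS control (adjusted p = 0.0560), and with DESeq2 (adjusted p = 0.113).

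**Figure D4:**
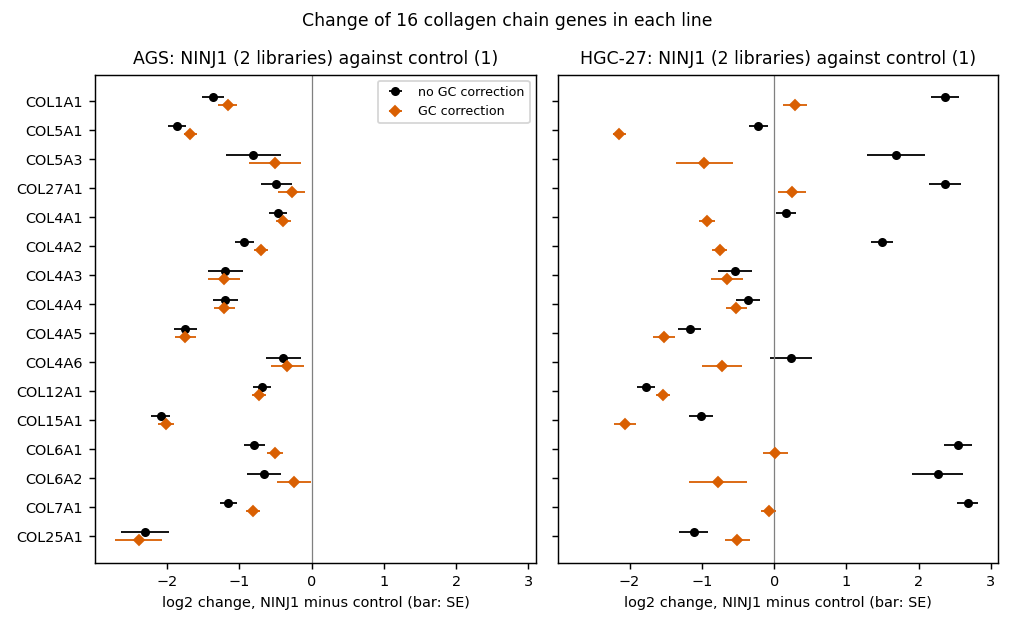
Log2 change, NINJ1-labelled minus control, of the 16 chains at the filter level in all 6 libraries, AGS left and HGC-27 right; points are fitted changes and bars their SE, black without and orange with the GC correction. In AGS the black and orange points lie close to each other and below 0, while in HGC-27 COL7A1 moves from 2.68 to -0.0768 and COL12A1 from -1.78 to -1.54.

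With the GC correction 9 chains fell in both lines, which is 9 of the 15 that fell in AGS and 9 of the 11 that fell in HGC-27. They were COL5A1, COL4A1, COL4A2, COL4A3, COL4A4, COL4A5, COL12A1, COL15A1 and COL25A1. Without it COL4A3, COL4A5, COL12A1, COL15A1 and COL25A1 did so, 5 of the 16 that fell in AGS and all 5 that fell in HGC-27. Of all genes tested 5.24% fell in both lines with the correction, which is 51.9% of those that fell in AGS and 19.4% of those that fell in HGC-27, and 2.8% did without it (30.1% and 9.63%). The share of the AGS list is thus near that of all genes, at 5 of 16 chains without the correction and 9 of 15 with it. The share of the HGC-27 list is above it, at 9 of 11 chains against 19.4% with the correction and 5 of 5 against 9.63% without it. This share has to be read beside the AGS calls. With the correction 53.6% of tested chains fell in AGS (10.1% of all genes), and without it 57.1% (9.30%). The 11 chains that fell in HGC-27 with the correction were all among the 16 at the filter level in all 6 libraries. Of these 16, 12 fell in AGS. Whether the overlap differs from that of other genes was not tested. The 2 contrasts share no library, but each rests on 1 control.

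The difference between the contrasts was tested directly, as the change in AGS minus the change in HGC-27. Without the GC correction it was called below 0 for 19 of 28 chains and above 0 for 1, where 30.2% and 23.9% of all genes were called. With it the counts were 7 and 3, where 15.7% and 19.5% were (35.2% in all). COL12A1, which fell more in HGC-27, had a difference of 1.09 (SE 0.18, edgeR adjusted p = 5.71e-06), or 0.81 with the correction (adjusted p = 6.83e-05). COL7A1 had -3.83 (SE 0.19, edgeR adjusted p = 5.67e-17), or -0.74 with it (adjusted p = 0.000235). COL1A1 had -3.73 and -1.45, and COL25A1 -1.19 and -1.88, each past the threshold both times. The uncorrected call of COL25A1 was lost without NINJ1-labelled AGS replicate 1 (adjusted p = 0.122) and with DESeq2 (adjusted p = 0.0684), which also did not call COL4A5 (adjusted p = 0.155) or COL13A1 (adjusted p = 0.0879). For COL15A1 the difference was -1.08 without the correction and 0.0511 with it (adjusted p = 0.865), and for COL5A1 it turned from -1.64 to 0.467 (adjusted p = 0.00891).

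The lines were compared within the NINJ1-labelled libraries, 2 against 2, which leaves out both controls. Of 28 chains 9 were higher and 9 lower in AGS, with and without the GC correction, where 20.2% of all genes were higher and 20.0% lower, 40.2% in all (21.3% and 22.4% with it). The 6 tested fibrillar chains were called lower in AGS, but COL5A2 among them passed the filter through the HGC-27 libraries alone, so its lower level was bound up with the filter. Basement membrane chains were 3 higher and 1 lower, FACIT chains 2 higher and 1 lower, and both multiplexins and both tested beaded filament chains were higher. Of the 16 chains at the filter level in all 6 libraries, 7 were higher and 6 lower. Whether a class differs from other genes was not tested.

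COL15A1 had the largest difference upward, 17.7 and 14.8 FPKM in AGS against 2.03 and 1.75 in HGC-27 (log2 3.10, SE 0.13, edgeR adjusted p = 2.09e-19). COL9A3 was higher by 1.90 (SE 0.21), COL4A1 by 1.17 (SE 0.11), COL18A1 by 0.98 (SE 0.20), COL6A1 by 0.92 (SE 0.12), COL4A6 by 0.88 (SE 0.22) and COL4A2 by 0.83 (SE 0.11), with edgeR adjusted p from 8.48e-11 to 0.00133. For each of these 7 chains both AGS libraries lay above both HGC-27 libraries. COL6A2 (0.55, adjusted p = 0.0357) and COL12A1 (0.37, adjusted p = 0.00577) also passed with edgeR. The call of COL6A2 was lost without HGC-27 replicate 1 or AGS replicate 2 (adjusted p = 0.132 and 0.523), and that of COL12A1 without AGS replicate 2 (adjusted p = 0.190). DESeq2 did not call COL6A2 (adjusted p = 0.265), COL4A6 (adjusted p = 0.0525) or, among the chains lower in AGS, COL11A2 (adjusted p = 0.153).

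COL25A1 had the largest difference downward, 11 and 20 counts in AGS against 397 and 303 in HGC-27 (log2 -4.30, SE 0.25, edgeR adjusted p = 8.71e-16). Among the fibrillar chains COL27A1 differed by -1.95 (SE 0.17, edgeR adjusted p = 1.23e-11), COL5A3 by -1.41 (SE 0.30), COL11A2 by -1.17 (SE 0.35), COL1A1 by -0.99 (SE 0.13) and COL5A1 by -0.46 (SE 0.11, adjusted p = 0.00071). COL5A2 had 0 and 4 counts in AGS against 20 and 21 in HGC-27, and COL9A2 1 and 1 against 21 and 15, which rest on few counts. Without AGS replicate 1 the calls of COL5A1 and COL5A2 were lost (adjusted p = 0.0587 and 0.0586), and without HGC-27 replicate 2 or AGS replicate 2 that of COL11A2 (adjusted p = 0.154 and 0.164). COL4A4 was lower by -0.61 (SE 0.15, adjusted p = 0.00101), whereas COL4A3, COL4A5 and COL7A1 differed by -0.23, 0.15 and -0.19 and did not pass.

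**Figure D5:**
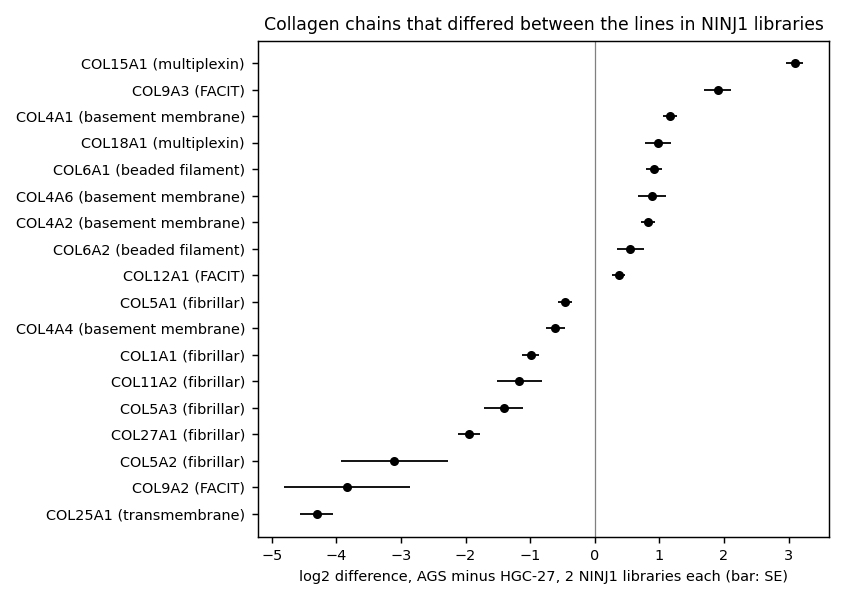
Log2 difference, AGS minus HGC-27, in the NINJ1-labelled libraries (2 each) for the 18 chains called, sorted by size, with bars for the SE. The 6 fibrillar chains lie below 0, the multiplexins and beaded filament chains above it, and basement membrane and FACIT chains on both sides, from COL25A1 at -4.30 to COL15A1 at 3.10.

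Over all 6 libraries, with treatment as an additive term, 3 of 28 chains differed between the lines, where 6.14% of all genes did (3.27% higher and 2.87% lower). COL15A1 was higher in AGS by 3.46 (SE 0.30, edgeR adjusted p = 0.00477), COL4A1 higher by 1.38 (SE 0.21, adjusted p = 0.0193) and COL25A1 lower, at -3.87 (SE 0.41, adjusted p = 0.00824). With the GC correction 7 chains were higher and 5 lower, where 10.8% and 11.2% of all genes were. None of the 6 tested fibrillar chains was called without the correction (median log2 difference -0.448), and 4 were called lower with the correction. Without the HGC-27 control, and likewise without the AGS control, 9 chains were higher and 9 lower. In these fits the treatment term takes up the control that is left. They therefore repeat the comparison within the NINJ1-labelled libraries and are no further test. Without 1 NINJ1-labelled library the count of called chains was 1 (without HGC-27 replicate 1 or AGS replicate 2) or 2 (without HGC-27 replicate 2 or AGS replicate 1), and the call of COL4A1 was lost each time (adjusted p from 0.10 to 0.129). That of COL25A1 was lost without HGC-27 replicate 1 (adjusted p = 0.0542) or AGS replicate 2 (adjusted p = 0.0585).

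All of these comparisons rest on the reading of the lines. With the lines of the titles 0 chains were called in AGS, in the difference and between the lines, and 4 in HGC-27 (3 higher and 1 lower), where 12.2% of all genes were called. In the comparisons with 0 chains edgeR called 0 of all genes under the titles, with 595 at an unadjusted p under 0.05 in AGS, 4459 for the difference, 19 between the lines in NINJ1-labelled libraries and 52 over all libraries, and no other tool was run under the titles. The values of COL15A1 show the difference. Under the file names the NINJ1-labelled pairs hold 1486 and 1307 counts in AGS and 196 and 175 in HGC-27, and under the titles each pair would hold 1 high and 1 low library.

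Some trimers are built from more than 1 kind of chain, and several partners had few counts or none. COL1A2, the usual partner of COL1A1, had at most 3 counts in any library. COL5A2, the usual partner of COL5A1, had 23, 20 and 21 counts in HGC-27 and 4, 0 and 4 in AGS, so that COL5A1 stood 141 to 163 times above it per length in HGC-27. COL6A3, the large chain of type VI collagen, had at most 7 counts beside 91 to 1697 of COL6A1, and COL6A5 and COL6A6, which can replace it, at most 2 and 9. COL9A1 had none beside COL9A3. Outside these partner sets, COL3A1, the type III chain of soft tissues, had at most 6 counts.

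The 6 type IV genes lie in 3 pairs that start next to each other on opposite strands. RefSeq starts (GRCh38.p14) are 126 bases apart for COL4A1 and COL4A2 on chromosome 13, 418 for COL4A4 and COL4A3 on chromosome 2 and 379 for COL4A6 and COL4A5 on chromosome X. Per length, COL4A3 stood at 0.373, 0.345 and 0.313 of COL4A4 in the HGC-27 control and its NINJ1-labelled libraries and at 0.428, 0.470 and 0.385 in AGS. The ratio of COL4A5 to COL4A6 was 11.4, 4.78 and 3.84 in HGC-27 and 6.60, 2.63 and 2.51 in AGS, so it was higher in each control than in both NINJ1-labelled libraries of its line. That of COL4A1 to COL4A2 was 1.83, 0.834 and 0.644 in HGC-27 and 0.670, 0.951 and 0.897 in AGS. COL4A2 has 62.0% GC and COL4A1 55.4%.

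Promoter letters are shown for 1 gene of each of the 2 less abundant pairs and for the 2 leading chains COL5A1 and COL7A1, whose uncorrected values in HGC-27 differed. They are the bases before the RefSeq start that overlap no GENCODE exon, on the strand of the gene, from the 32 of 44 chains with an entry (RefSeq, GRCh38.p14). Capitals mark promoter motifs on either strand. The letters GGGCGG are known as the GC box, where factors of the Sp family can bind. A CCAAT motif is known as the binding site of NF-Y. The letters TATAAA are known as the TATA box, where TBP can bind. The windows are chr2:227164454-227164564 (COL4A3, plus strand, 111 bases), chrX:108439588-108439837 (COL4A5, plus strand, 250 bases), chr9:134641553-134641773 (COL5A1, plus strand, 221 bases) and chr3:48595330-48595579 (COL7A1, minus strand, 250 bases).
COL4A3: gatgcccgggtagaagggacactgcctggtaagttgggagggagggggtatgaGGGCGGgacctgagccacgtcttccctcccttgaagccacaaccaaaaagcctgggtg
COL4A5: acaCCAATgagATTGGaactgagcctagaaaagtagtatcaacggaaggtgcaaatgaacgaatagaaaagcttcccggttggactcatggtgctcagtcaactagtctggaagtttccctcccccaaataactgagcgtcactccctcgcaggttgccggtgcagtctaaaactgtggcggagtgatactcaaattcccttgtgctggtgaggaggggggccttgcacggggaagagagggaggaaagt
COL5A1: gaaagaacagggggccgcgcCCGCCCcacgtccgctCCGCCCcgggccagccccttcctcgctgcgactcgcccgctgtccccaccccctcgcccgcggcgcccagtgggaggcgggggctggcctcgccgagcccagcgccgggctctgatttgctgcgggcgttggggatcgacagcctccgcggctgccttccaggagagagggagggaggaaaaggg
COL7A1: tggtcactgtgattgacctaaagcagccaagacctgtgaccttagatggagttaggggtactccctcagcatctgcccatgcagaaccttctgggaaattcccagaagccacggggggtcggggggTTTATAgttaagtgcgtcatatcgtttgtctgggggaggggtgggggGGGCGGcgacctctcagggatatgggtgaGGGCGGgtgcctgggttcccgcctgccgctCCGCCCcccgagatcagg
In these windows COL7A1 has 3 matches to the GC box letters and 1 to the TATA box letters, the latter on the strand opposite the gene. COL5A1 has 2 to the GC box, COL4A5 2 to CCAAT and COL4A3 1 to the GC box. Distance of a match from the start was not weighed. Over the 250 bases before the start, GGGCGG was found in 18 of 32 chains (56.2%) and in 42.3% of 27305 promoters, CCAAT in 9 (28.1%) and 33.0%, and TATAAA in 5 (15.6%) and 11.1%. These are counts of letters on both strands and do not show binding.

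Genes that modify, fold, cut and bind collagen were counted from 4 lists. In AGS 16 of 42 tested were lower and 1 higher in the NINJ1-labelled libraries, which is 38.1% and 2.38% of them, where 9.30% of all genes were lower and 5.73% higher. Their median log2 change was -0.361, against 0.00357 over all genes. Of 14 genes for hydroxylation and glycosylation 6 fell. P4HA3, a subunit of prolyl 4-hydroxylase, had 13.7 FPKM in the control against 2.21 and 1.99 in the NINJ1-labelled libraries (log2 -2.76, SE 0.20, edgeR adjusted p = 4.94e-12), and the prolyl 3-hydroxylases P3H2 and P3H1 fell by 0.73 and 0.63. Of 9 genes for folding and export FKBP10 and the collagen chaperone SERPINH1 fell, by 0.89 and 0.86, and KLHL12, which enlarges the transport vesicle, rose by 0.72.

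Of 11 genes for propeptide removal and crosslinking 5 fell, with the smallest p for the proteases TLL1 (-1.35) and BMP1 (-1.03) and the crosslinking enzyme LOX (-0.87). Of 8 collagen receptors 3 fell: the uptake receptor MRC2 (18.8, 6.24 and 5.44 FPKM, log2 -1.74, SE 0.15, edgeR adjusted p = 2.38e-10), the integrin chain ITGA1 (-1.01) and the receptor kinase DDR1 (-1.002). With the GC correction the counts over the 4 lists were again 16 and 1. In HGC-27 they were 14 lower and 19 higher, and 20 lower and 9 higher with the correction. As shares these are 33.3% lower and 45.2% higher, where 29.1% and 34.0% of all genes were, and 47.6% and 21.4% with the correction, where 27% and 22.1% were. TLL1 and ITGA1 were lower there as well, by -2.04 and -2.30 (-1.46 and -1.60 with the correction).

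Between the lines, in the NINJ1-labelled libraries, 10 of these 42 genes were higher and 10 lower in AGS, 23.8% each way and near the 20.2% and 20.0% of all genes. P4HA3 and P3H2 were higher, by 2.70 (SE 0.25) and 2.39 (SE 0.15), as was MRC2 by 1.48 (SE 0.14). SERPINH1 was lower, at -1.23 (SE 0.11, edgeR adjusted p = 6.52e-11), with 14.7 and 12.5 FPKM in AGS against 30.4 and 33.3 in HGC-27.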

How the data were processed

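Libraries were made from polyadenylated RNA with a NEBNext Ultra kit, per the labels' protocols. HISAT2 (version not given in the sources used here), HTSeq 0.13.5 and GRCh38 are named in the submitters' processing notes, and strand setting and annotation release are not given there. Per the file headers, each deposited table holds a raw count and an FPKM per gene. The authors' FPKM equals the count divided by 1 fixed gene length and the library total, to a relative departure of at most 5.72e-09.

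Counts were tested with edgeR 4.0.16 in R 4.3.3 (TMM scaling, filterByExpr with a minimum count of 10, two-sided quasi-likelihood F tests, Benjamini-Hochberg adjusted p under 0.05) with all 6 libraries in 1 model of 4 group means. The lines over all libraries were compared with line and treatment as additive terms. The SE is the log2 change divided by the square root of F. Depth of 12619684 to 18175697 counts limits chains with few counts. The scripts were tested on simulated data.

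The GC correction fitted log2 CPM deviations to GC content (longest GENCODE 29 transcript, lowess span 0.3) and added the trend to the offsets. Other alternatives were DESeq2 1.42.0, its size factors in edgeR, no filter, limma 3.58.1 on log2(FPKM + 1) and log2(FPKM + 0.1) for genes with FPKM of at least 1 in 2 libraries, each library left out, a replicate block, and the lines of the titles. Chains with FPKM of at least 1 in any library, or past the threshold in any comparison, were named, with at most 3 genes by smallest p from each list of collagen machinery. The members and lists were chosen with earlier results of these data known.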

Additional observations from a re-analysis of the deposited data

Results flagged for a closer look

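The change with the NINJ1 label differed between the lines, by the test of that difference without a GC correction (edgeR, adjusted p under 0.05), for 20 chains. These are 20 of 28 tested, where 54.2% of all genes tested were called. The difference is given as the log2 change in AGS minus that in HGC-27. Fibrillar chains had -3.73 (COL1A1), -1.64 (COL5A1), -2.49 (COL5A3), -3.19 (COL11A2) and -2.85 (COL27A1). Basement membrane chains had -0.63 (COL4A1), -2.42 (COL4A2), -0.83 (COL4A4) and -0.58 (COL4A5). FACIT chains had -4.66 (COL9A3), 1.09 (COL12A1) and -4.15 (COL16A1), and the multiplexin COL15A1 had -1.08. The others were COL6A1 at -3.33, COL6A2 at -2.92, COL7A1 at -3.83 and COL25A1 at -1.19. COL9A2, COL18A1 and COL13A1 had no count in the HGC-27 control and are given by the edgeR adjusted p of the difference, 0.000213, 2.08e-11 and 0.0215. The difference of COL4A1 was lost without AGS NINJ1-labelled replicate 2 (adjusted p = 0.0627), as was that of COL4A5 (adjusted p = 0.249), and that of COL13A1 without HGC-27 replicate 2 (adjusted p = 0.137). DESeq2 did not call COL4A5, COL13A1 or COL25A1 (adjusted p = 0.155, 0.0879 and 0.0684).

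Among the named genes of collagen processing and binding, the same test called P4HA3 at -2.38, SERPINH1 at -2.71, FKBP10 at -2.38, KLHL12 at 0.66, BMP1 at -1.94, TLL1 at 0.69, ITGA1 at 1.29, DDR1 at -2.37 and MRC2 at -4.45. The HGC-27 control had 2.31% of its counts in genes with over 60% GC, against 9.25% to 11.3% in the other libraries. With the GC correction 10 of these 20 chains were called, and no other of the 28 tested. That is near the share of all genes, 35.2%. Of the 10 chains, COL5A1 and COL4A1 were called in the other direction, at 0.467 and 0.533. The part of that library in each difference was not tested beyond this correction.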

How the results depend on the processing

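The count of chains called in AGS was 16, and 0 with the lines of the titles and 10 with limma on either pseudocount. In HGC-27 it was 18, and 4 with the titles and 12 with the GC correction, alone or with the replicate block. For the difference it was 20, and 0 with the titles, 10 with the correction and 11 with block and correction. Between the lines in NINJ1-labelled libraries it was 18, and 0 with the titles and 11 with limma on log2(FPKM + 0.1). Over all libraries it was 3, and 0 with the titles, 8 with DESeq2, 12 with the correction, 1 with the replicate block, 7 with block and correction and 5 with the 4 libraries on which titles and file names do not differ. Leaving out 1 library gave 14 to 19 in AGS, 16 to 19 in HGC-27, 18 to 21 for the difference, 15 to 18 and 1 to 18 between the lines. The 18 over all libraries came from leaving out a control, which repeats the comparison within the NINJ1-labelled libraries. An arm left with 1 library is assumed to vary like the others, and no value was had for a line without its control. Deviations of the libraries with the same number had r = 0.0078 over 17617 genes, so the numbers were not taken to pair libraries, and the replicate block gave 17 calls in AGS.

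Directions turned with the titles for COL25A1 in AGS (0.83) and in the difference (2.67), for COL15A1 in HGC-27 (1.15), and between the lines for COL1A1 (0.143), COL5A1 (0.109), COL5A3 (0.682), COL11A2 (0.791), COL27A1 (0.127), COL12A1 (-0.109) and COL6A2 (-0.183). With the GC correction, and with block and correction, they turned in HGC-27 for COL5A3 (-0.968 and -0.966), COL4A2 (-0.755 and -0.757), COL9A3 (-0.138 and -0.141), COL6A2 (-0.778 and -0.787) and COL7A1 (-0.0768 and -0.0777). In the difference they turned for COL5A1 (0.467 and 0.467), COL5A3 (0.464 and 0.462), COL4A1 (0.533 and 0.535), COL4A2 (0.0528 and 0.0536), COL15A1 (0.0511 and 0.0490) and COL6A2 (0.533 and 0.523), and with limma on log2(FPKM + 1) for COL25A1 (0.0206). The cause was not tested. Chains with few counts are limited by depth.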
